A study of Caenorhabditis elegans with 6 samples.

Results

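The transcripts that tagged RNA of wild-type A-class motor neurons held were described from 3 of the 6 arrays of a study of the DA and VA neurons of the nematode Caenorhabditis elegans. The 3 arrays were those labelled wildtype, and all 3 were used. The study also measured 3 arrays of unc-37(e262) animals, which were not compared here. The wildtype animals had the N2 genotype, were at the L2 larval stage and were grown at 25 °C on E. coli strain Na22. Their tagged RNA came from a poly(A) binding protein, PAB-1, that carried a FLAG epitope and was made under the unc-4 promoter, so that mRNA bound to it could be pulled down from whole animals. By their labels the arrays are biological replicates, with nothing said on whether each came from animals grown apart. Poly(A) RNA was amplified through 2 rounds of in vitro transcription before it was labelled with biotin.

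DA and VA neurons are cholinergic motor neurons of the ventral nerve cord that excite body wall muscle and drive backward movement. UNC-4, a homeodomain repressor, acts in them with the Groucho-like corepressor UNC-37 to keep B-class genes off, and UNC-3, a COE-family factor, turns on the genes of acetylcholine release. The unc-4 promoter is also known to be active in a few other neurons, such as the SAB neurons and I5 of the pharynx. A pull-down of this kind brings down some RNA of other cells as well, and the 3 arrays include no sample of whole animals, so no enrichment over the animal could be computed.

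A level here is the mean over the 3 arrays of the log2 intensity, the brightness of a probe set as deposited. A gene stands for its brightest probe set among those that name it alone, and this gave 17118 genes. The percentile of a gene is its place among these 17118 levels, with 100 at the brightest. Probe sets differ in how well they bind, so a rank is one of brightness and not of molecules, and a dim probe set does not show that a transcript was missing. Each gene's values are given in the order replicate 1, replicate 2 and replicate 3, with the mean ± SD over the 3 arrays.

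A background level was set at the 95th percentile of 1270 chemoreceptor genes. These encode receptors of smell and taste of which each is known from few neurons, and none defines motor neurons. It lay at 6.08 on the log2 scale, an intensity of 67.7. The mean level was above it for 7270 of the 17118 genes, 42.5%. Of all genes, 6736 were above it on each of the 3 arrays and 9306 on none, while 500 were above it on 2 arrays and 576 on 1. The line cut through a crowded part of the range, with 414 genes less than 0.1 below it and 416 less than 0.1 above it.

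The 3 arrays were alike across probe sets. Pearson's r was computed over all 22548 probe sets, which are not independent replicates. It was 0.991 between replicates 1 and 2, 0.988 between replicates 1 and 3 and 0.986 between replicates 2 and 3. Over the same probe sets, array medians of intensity lay between 51.7 and 52.4. Replicate 3 was the most often highest array among genes above the background level, for 42.8% of them, against 27.4% for replicate 1 and 29.8% for replicate 2. Over all genes the shares were close to even, at 32.6% for replicate 1, 34.9% for replicate 2 and 32.5% for replicate 3. The labels give no date or batch by which the arrays could be split.

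**Figure D1:**
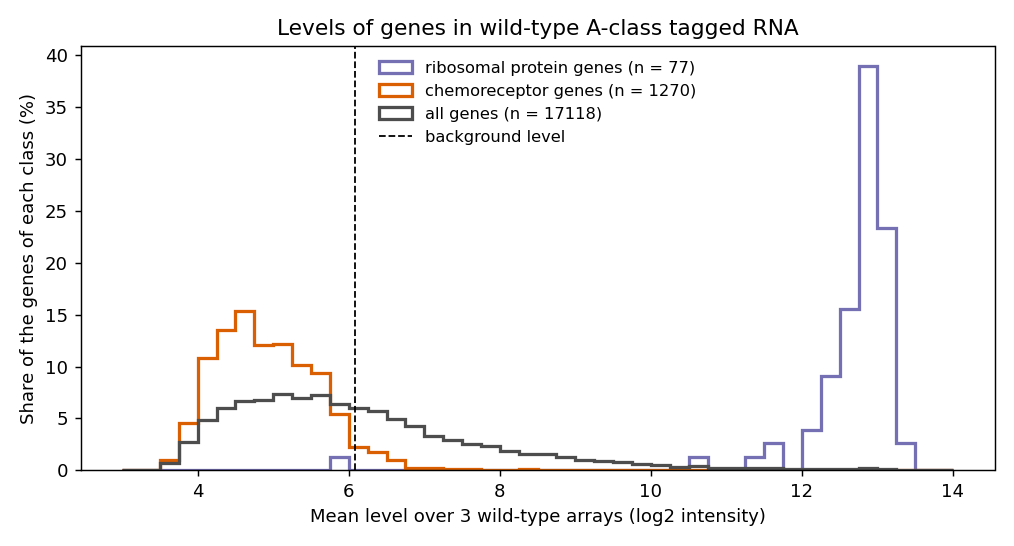
Share of genes (vertical axis, percent of each class) by mean level over the 3 wild-type arrays (horizontal axis, log2 intensity, bins of equal width) for 77 ribosomal protein genes, 1270 chemoreceptor genes and all 17118 genes. The dashed line is the background level of 6.08. Ribosomal protein genes lie at the bright end and chemoreceptor genes at the dim end, with medians of 12.83 and 4.86 against 5.78 for all genes.

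The 4 markers of the A class were all above the background level on all 3 arrays. unc-4, which encodes the homeodomain factor that gives the class its identity, read 8.18, 7.28 and 6.83, a mean of 7.43 ± 0.69 at percentile 82.1. Replicate 1 was the high array and replicate 3 the low one. unc-3, the gene of the COE-family factor, read 9.09, 8.74 and 8.50, a mean of 8.78 ± 0.29 at percentile 92.8, in the same order of arrays. unc-17 encodes the vesicular acetylcholine transporter and read 9.08, 8.56 and 8.79, a mean of 8.81 ± 0.26 at percentile 92.9. cha-1 encodes choline acetyltransferase, which makes acetylcholine, and read 7.19, 6.85 and 7.15, a mean of 7.06 ± 0.18 at percentile 77.3. Replicate 1 was highest for each of the 4 genes. unc-17 and cha-1 share a locus and a first exon, and their brightest probe sets are of the kind that can bind related sequence, so signal of the 2 genes may not be fully separate.

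Other probe sets of these genes were dimmer. unc-3 had another set at 6.004 ± 0.17, just under the background level. The other 2 sets of unc-17 read 7.55 ± 0.15 and 7.75 ± 0.27, and the other set of cha-1 read 6.54 ± 0.18, all above it. The brightest sets of the 4 marker genes were thus above a line that 42.5% of all genes passed. unc-17 and cha-1 serve acetylcholine, so they do not part the A class from other cholinergic neurons. The brightness of the 4 genes did not set them apart from genes of other tissues, as described next.

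Of 11 genes measured from a list of A-class and cholinergic genes, 7 were above the background level (63.6%, against 42.5% of all genes), with a median percentile of 65.9. acr-12, which encodes a nicotinic receptor subunit of ventral cord motor neurons, read 8.08, 7.50 and 7.40, at percentile 84.5. Its partner acr-2 read 6.62, 6.36 and 6.34, a mean of 6.44 ± 0.16. unc-129, a TGF-beta ligand of DA and DB neurons, read 6.71, 6.46 and 6.05, a mean of 6.41 ± 0.33. In each of these 3 genes replicate 1 was the highest array. cho-1, the choline transporter that feeds acetylcholine synthesis, lay at the line, with 6.31, 5.78 and 6.10 and a mean of 6.07 ± 0.27. The 3 acetylcholinesterase genes, whose enzymes break acetylcholine down, were not above it: ace-1 averaged 5.996 ± 0.03, ace-3 averaged 5.06 ± 0.21 and ace-2 averaged 4.81 ± 0.25. Replicate 1 was the highest array for 10 of the 11 genes, against 32.6% of all genes, and the list's share of the summed intensity of all genes was 0.068% in replicate 1, 0.050% in replicate 2 and 0.047% in replicate 3.

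**Figure D2:**
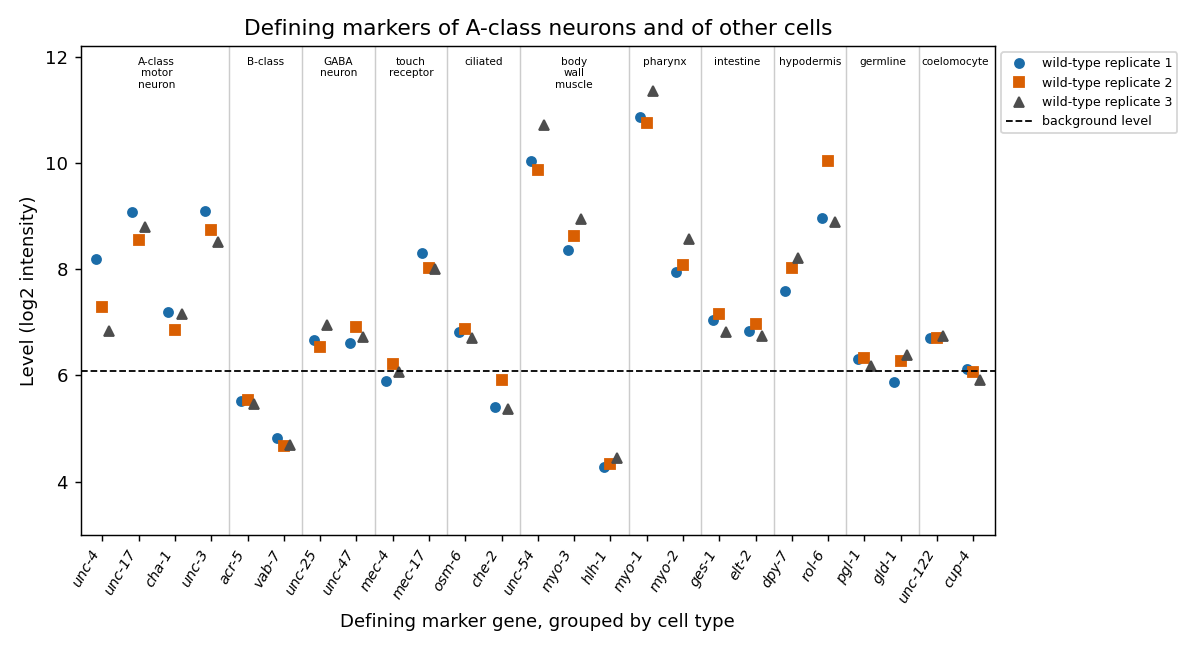
Level (vertical axis, log2 intensity) of defining marker genes (horizontal axis), grouped by the cell type they mark, with 1 point per wild-type array and the background level dashed. The A-class markers lie above the line on each array, and so do the markers of pharynx, intestine and hypodermis and 2 of the 3 of body wall muscle, with unc-54 and myo-1 brighter on every array than any A-class marker.

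Of 5 genes of B-class neurons, the cholinergic class that UNC-4 keeps apart from the A class, 3 were above the background level. That share was 60%, against 42.5% of all genes. acr-5, a nicotinic receptor subunit gene of the B class, read 5.53, 5.53 and 5.45, and vab-7, the homeodomain gene of DB neurons, read 4.82, 4.68 and 4.70. Neither was above the background level on any array. The other 3 were above it on every array. glr-4, a glutamate receptor subunit gene, averaged 6.72 ± 0.19, but the dimmest of its 3 probe sets averaged 4.77. del-1, a sodium channel gene that VA neurons are known to take up later, averaged 6.68 ± 0.07. ceh-12, an HB9-like homeodomain gene of VB neurons, averaged 6.27 ± 0.15. With each gene's probe sets averaged, 2 of the 5 genes were above the background level. The count was also 2 with that level raised to 6.59 or 6.66.

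Probe sets of genes of other tissues were among the bright ones in the tagged RNA. Of 20 body wall muscle genes, 19 were above the background level and also among the brightest 10% of genes, which starts at 8.32. unc-54, the major myosin heavy chain gene of that muscle, read 10.04, 9.86 and 10.72, a mean of 10.21 ± 0.45 at percentile 97.6. myo-3, another muscle myosin, averaged 8.63 ± 0.29, and pat-10, the muscle troponin C gene, averaged 12.27 ± 0.03. The 1 dim member was hlh-1, the MyoD-like factor of muscle, at 4.35 ± 0.09. Replicate 3 was highest for 16 of the 20 genes, and for 78.9% of the 19 above the background level, against 42.8% of all genes above that level. The list's share of the summed intensity was 1.02% in replicate 1, 0.978% in replicate 2 and 1.12% in replicate 3.

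In pharynx, intestine and hypodermis nearly all genes were also above the background level, against 42.5% of all genes. Smaller shares than in muscle were among the brightest 10%: 6 of 13 pharynx, 10 of 16 intestine and 10 of 22 hypodermis genes. All 13 pharynx genes were above the background level, with a median percentile of 89.9. myo-1, a pharyngeal myosin gene, read 10.86, 10.74 and 11.34, and myo-2, another, read 7.95, 8.07 and 8.56. For intestine it was 15 of 16 genes, with asp-1, an aspartic protease gene, at 12.35 ± 0.07, ges-1, a gut esterase gene, at 7.01 ± 0.17 and elt-2, the GATA factor of the gut, at 6.84 ± 0.12. Hypodermis, the skin that makes the cuticle, had 21 of 22 genes above, with the cuticle collagen gene dpy-13 at 12.90 ± 0.26. Its defining collagen genes dpy-7 and rol-6 averaged 7.94 ± 0.32 and 9.30 ± 0.64. Replicate 2 was highest for 13 of the 22 hypodermis genes, against 34.9% of all genes, and replicate 1 for 1 of them.

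For GABA neurons, which lie beside the A class in the ventral cord, 6 of 8 genes were above the background level, with a median percentile of 71.2, against 65.9 for the A-class and cholinergic list. Among them, unc-25, which makes GABA, read 6.66, 6.53 and 6.95, and unc-47, its vesicular transporter, read 6.62, 6.92 and 6.73. With each gene's probe sets averaged, 4 of the 8 GABA neuron genes were above the background level. Of 10 touch receptor neuron genes, 5 were above, led by the tubulin acetyltransferase gene mec-17 at 8.11 ± 0.17, while the channel gene mec-4 averaged 6.05 ± 0.15, just under the line. The ciliated sensory neuron list had 8 of 26 above, a share of 30.8% that is below the 42.5% of all genes. Its brightest member was daf-19, the RFX factor of cilia, at 9.29 ± 0.09, and the intraflagellar transport genes osm-6 and che-2 averaged 6.79 ± 0.09 and 5.56 ± 0.30.

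Of 10 genes that make or carry monoamines and glutamate in other neurons, 7 were above the background level (70%, against 42.5% of all genes). The brightest was cat-4, whose enzyme makes the cofactor of dopamine and serotonin synthesis, at 8.04 ± 0.13. eat-4, the vesicular glutamate transporter gene, read 6.88, 5.87 and 6.01, above the line in replicate 1 alone.

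Of 20 germline genes, 9 were above, a share of 45.0% that is near the 42.5% of all genes, and none was among the brightest 10%. The P-granule gene pgl-1 averaged 6.27 ± 0.08 and the translational regulator gene gld-1 averaged 6.18 ± 0.27. Vitellogenin genes, which the adult gut uses to make yolk, had 1 of 5 above, vit-6 at 6.73 ± 0.15, and 21 of 66 sperm genes were above (31.8%). The coelomocyte marker unc-122 averaged 6.72 ± 0.03, and cup-4 averaged 6.04 ± 0.11. The part that RNA of muscle, gut, skin or other neurons has in the levels of any gene given here was not tested. In bulk RNA, fewer cells of a type and less RNA per cell cannot be told apart.

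Genes of protein synthesis made up the bright end. Of the 30 brightest genes that have a symbol, 26 were cytosolic ribosomal protein genes by the list used here, and another gene, rpsa-1, encodes the small subunit protein SA. The brightest of the family, rpl-17, read 13.41, 13.35 and 13.37. Of the 77 ribosomal protein genes measured, 76 were above the background level, with a median percentile of 99.7, and the family held 16.6% ± 0.14 of the summed intensity of all genes. The exception was rpl-42, at 5.90 ± 0.09. The remaining 3 of the 30 brightest were ram-2, at 12.98 ± 0.21, and the cuticle collagen genes col-93 and col-125, which were the brightest genes of all. col-93 read 13.56, 13.60 and 13.69, and col-125 read 13.45, 13.56 and 13.51. Both collagen levels, and that of ram-2, came from probe sets that can bind related genes, so they may hold signal of paralogs. No gene of the neuronal lists was among the 30.

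Other genes that most cells use followed. The translation elongation factor genes eef-1A.1 and eef-2 averaged 12.50 ± 0.12 and 12.45 ± 0.08, and 27 of 35 translation factor genes were above the background level. Oxidative phosphorylation, by which mitochondria make ATP, had 38 of 41 genes above, led by the cytochrome c gene cyc-2.1 at 12.49 ± 0.06. The other cytochrome c gene, cyc-2.2, averaged 4.41 ± 0.07. Proteasome genes had 32 of 33 above. The V-ATPase, the proton pump that loads synaptic vesicles and acidifies lysosomes, had 18 of 19 above, with vha-1 at 10.81 ± 0.05 and only vha-18 under the line, at 4.95 ± 0.16. pab-1, the gene of the protein that carried the tag, read 11.19, 11.09 and 11.25, at percentile 98.8, and whether its probes also bind transcripts of the tagged transgene was not tested.

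Replicate 3 was the highest array for most genes of several of these lists. This held for 25 of the 38 oxidative phosphorylation genes above the background level, 22 of the 27 translation factor genes, 22 of the 32 proteasome genes and 44 of the 58 chaperone genes, against 42.8% of all genes above that level. For ribosomal protein genes it held for 31 of 76, a share of 40.8%, and their summed intensity differed little between the arrays, at 16.8%, 16.6% and 16.6% of the total.

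Of 89 chaperone genes, 58 were above the background level, a share of 65.2%. The protein disulfide isomerase gene pdi-6 averaged 11.84 ± 0.08 and the calreticulin gene crt-1 averaged 11.60 ± 0.25, while the small heat shock gene hsp-16.41 averaged 3.84 ± 0.07. The hsp-16 genes are known to be switched on by heat. Histone genes had 22 of 26 above, led by the linker histone gene his-24 at 10.85 ± 0.09. Replicate 2 was highest for 17 of the 26, against 34.9% of all genes. RNA-binding and splicing genes had 22 of 25 above, with hrpa-1 at 10.57 ± 0.04 and pab-2, another poly(A) binding protein gene, at 9.80 ± 0.08. Of the 2 members of the ribosomal RNA list, rrn-3.1 is a ribosomal RNA gene and rrn-3.56 a ribosomal RNA pseudogene. The level of rrn-3.56 came from a probe set that can bind related genes. Both varied widely, with rrn-3.1 at 11.74, 11.38 and 12.76 and rrn-3.56 at 9.09, 8.17 and 9.82. They were lowest in replicate 2 and highest in replicate 3.

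Tubulins form the microtubules along which axonal cargo moves, and 14 of 16 tubulin genes were above the background level. The general alpha and beta tubulin genes tba-2, tbb-1, tba-1 and tbb-2 averaged 11.64 ± 0.05, 10.50 ± 0.16, 10.03 ± 0.27 and 9.63 ± 0.30. The isotypes known from touch receptor neurons were lower in rank, with mec-7 at 7.85 ± 0.11 and mec-12 at 7.14 ± 0.20. tba-5 and tba-6 were not above the line.

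**Figure D3:**
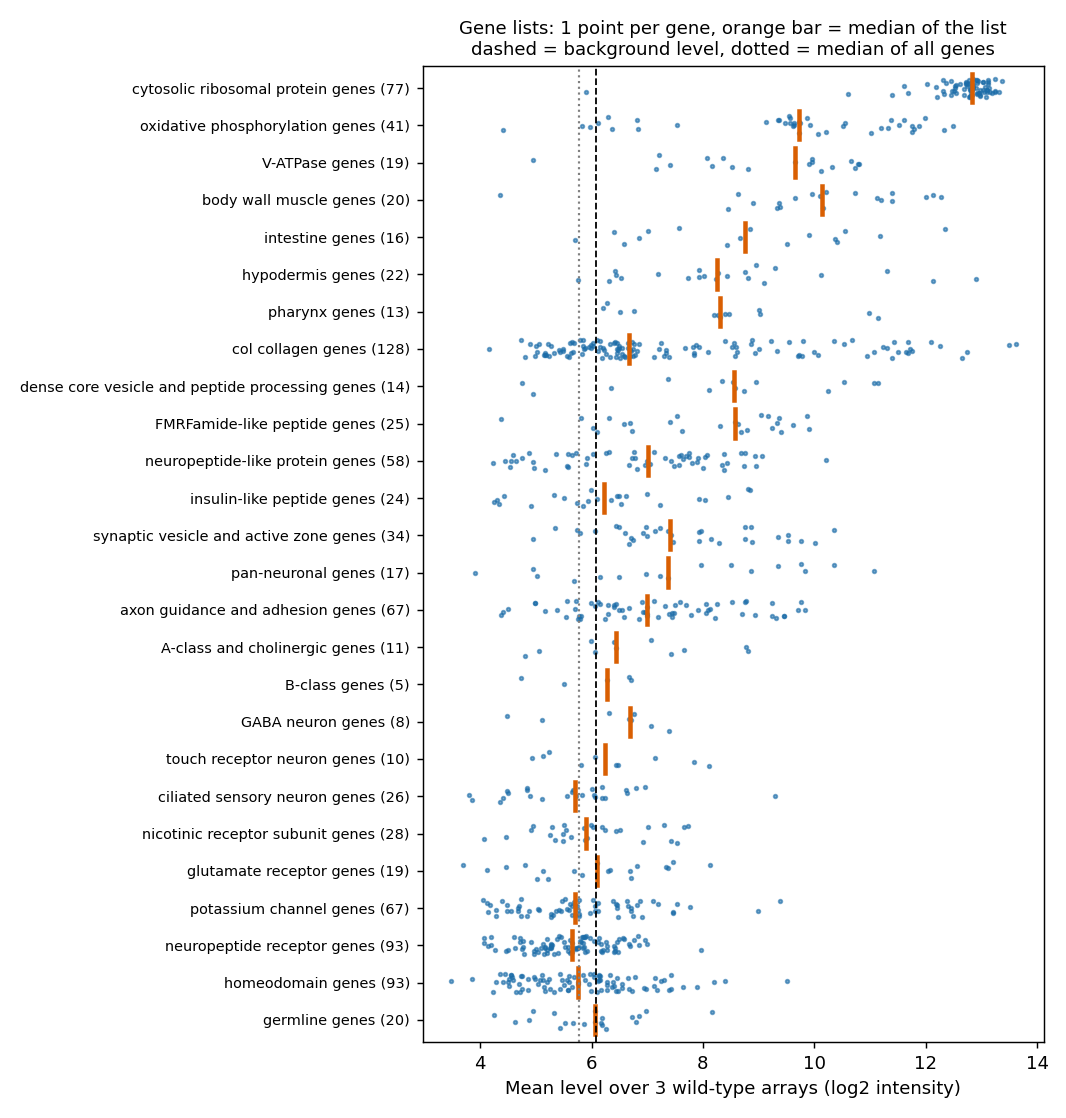
Mean level over the 3 wild-type arrays (horizontal axis, log2 intensity) of each gene of 26 lists (rows, with the number of genes measured), 1 point per gene and an orange bar at the list's median. The dashed line is the background level of 6.08 and the dotted line the median of all genes, 5.78. Ribosomal, energy and muscle lists lie to the right, peptide and vesicle lists between, and receptor, channel and homeodomain lists around the median of all genes.

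Neuronal genes were read in turn from secretion to receptors and ion channels. Of 17 pan-neuronal genes, which most neurons of the worm use, 13 were above the background level, and 7 were among the brightest 10%. snb-1, the synaptobrevin of the vesicle membrane, read 10.45, 10.29 and 10.32, at percentile 97.8. Its partner in fusion, the SNAP-25 gene ric-4, read 10.09, 9.45 and 9.73. rab-3, the vesicle GTPase, averaged 9.34 ± 0.24, and snt-1, the synaptotagmin that senses calcium, read 9.52, 8.61 and 8.47. Replicate 1 was the highest array in these 4 genes, of which rab-3 and snt-1 were chosen after values had been seen. It was the highest in 8 of the 17 genes of the list, against 32.6% of all genes. The list's median deviation from the mean of the 3 arrays was -0.011 in replicate 1. The brighter or similarly bright egl-3 and unc-44 were highest in replicates 3 and 2. At the other end, rgef-1, a Ras exchange factor gene used as a marker of all neurons, averaged 3.91 ± 0.04 at percentile 2.1, and unc-31, which encodes the CAPS protein of dense core vesicle release, averaged 4.96 ± 0.08. Both rest on 1 probe set each, and both are known to be used by neurons in general.

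Of 34 synaptic vesicle and active zone genes, 29 were above the background level (85.3%, against 42.5% of all genes), and the list's median percentile was 81.7. The kinesin heavy chain gene unc-116 averaged 10.01 ± 0.19, the stonin gene unc-41 averaged 9.53 ± 0.24 and unc-18, whose protein binds syntaxin, averaged 9.52 ± 0.22. The kinesin gene unc-104, which carries vesicles down the axon, averaged 7.96 ± 0.29. unc-57, the endophilin of vesicle recycling, and tom-1, the tomosyn that restrains release, were under the line, at 5.74 ± 0.06 and 5.34 ± 0.11. Replicate 1 was highest for 20 of the 34 genes, against 32.6% of all genes. The list held 0.354% of the summed intensity in replicate 1, 0.304% in replicate 2 and 0.316% in replicate 3.

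Dense core vesicles carry neuropeptides, and 12 of 14 of their genes were above, with 9 among the brightest 10%. Among them are enzymes that make a peptide from its precursor. The proprotein convertase gene egl-3 read 11.06, 11.07 and 11.09, at percentile 98.7, and its chaperone, the 7B2 gene sbt-1, averaged 10.24 ± 0.19. Another convertase gene, aex-5, averaged 6.35 ± 0.04. egl-21, the carboxypeptidase that trims the cut peptide, averaged 8.95 ± 0.09. pgal-1 and pghm-1, whose enzymes amidate its end, averaged 10.54 ± 0.09 and 8.74 ± 0.09. unc-108, a Rab2 gene needed to mature the vesicles, averaged 11.14 ± 0.15, and many other cells use it too.

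FMRFamide-like peptide genes had 22 of 25 above the background level, a median percentile of 91.5, and 13 genes among the brightest 10%. flp-1 read 10.03, 10.18 and 9.52, and flp-8 read 9.86, 9.61 and 10.14. flp-24 and flp-19 averaged 9.62 ± 0.08 and 9.41 ± 0.23. flp-13 read 9.79, 9.21 and 8.75, the widest range of these 5 genes, with replicate 1 on top. flp-17, flp-6 and flp-23 were not above the line, at 6.02 ± 0.10, 5.82 ± 0.24 and 4.37 ± 0.20. Several flp genes are known from other neurons than the A class, and whether those supplied the RNA was not tested.

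The neuropeptide-like protein family had 38 of 58 genes above, a share of 65.5%. nlp-9 led it, with 10.57, 9.93 and 10.11, followed by nlp-36, nlp-80 and nlp-33, at 9.07 ± 0.07, 8.95 ± 0.41 and 8.94 ± 0.24. nlp-67 was the dimmest, at 4.23 ± 0.17. Insulin-like peptide genes had 13 of 24 above, a share of 54.2% against 42.5% of all genes. ins-33 read 9.10, 8.17 and 9.24, and ins-35 averaged 8.81 ± 0.22, ins-17 averaged 8.45 ± 0.29 and ins-30 averaged 8.04 ± 0.37. ins-3 and ins-21 averaged 4.30 ± 0.02 and 4.25 ± 0.10.

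Of 93 neuropeptide receptor genes, 26 were above the background level, a smaller share than the 42.5% of all genes, and none was among the brightest 10%. dmsr-1 led the list at 7.97 ± 0.08, followed by npr-30 at 6.99 ± 0.07 and sprr-3 at 6.95 ± 0.10. npr-35 and dmsr-15 were the dimmest, at 4.07 ± 0.31 and 4.08 ± 0.11. The relay behind them, the heterotrimeric G proteins, had bright general subunits. goa-1, the Go alpha subunit that slows transmitter release, averaged 10.61 ± 0.12, and gpb-1, the beta subunit, averaged 9.49 ± 0.17. The calmodulin gene cmd-1 averaged 10.87 ± 0.20. gpc-2, a gamma subunit gene, read 11.20, 10.13 and 9.54, with replicate 1 far above replicate 3. Alpha subunits known mostly from sensory neurons, gpa-3 and gpa-8, were at 3.95 ± 0.09 and 3.89 ± 0.16.

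Acetylcholine opens nicotinic receptors, channels built of several subunits, and 11 of 28 subunit genes measured were above the background level (39.3%, against 42.5% of all genes). acr-8, lev-1 and unc-38, which encode subunits of the levamisole receptor of muscle, averaged 7.72 ± 0.12, 7.54 ± 0.06 and 7.42 ± 0.14. acr-12, given above, ranked after acr-8 in this list. acr-15 and acr-6 were the dimmest, at 4.47 ± 0.25 and 4.07 ± 0.11. Replicate 1 was highest for 17 of the 28 genes, against 32.6% of all genes.

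Of 7 genes that assemble and cluster these receptors, 5 were above, and 3 were among the brightest 10%. madd-4, which encodes a secreted organizer that motor neurons release at the junction, read 10.77, 10.08 and 10.01, at percentile 97.7. lev-10, the transmembrane protein that clusters receptors in muscle, read 9.90, 10.12 and 10.18, and its secreted partner lev-9 averaged 7.62 ± 0.16. The assembly genes nra-2 and ric-3 averaged 9.59 ± 0.05 and 7.72 ± 0.18, while unc-50 and molo-1 were under the line, at 5.86 ± 0.24 and 5.12 ± 0.20.

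Of 22 genes of GABA, muscarinic and amine receptors, 12 were above the background level, a share of 54.5% against 42.5% of all genes. The muscarinic receptor genes gar-3 and gar-2 led the list together with unc-49, the GABA-A receptor of body wall muscle. gar-3 read 9.24, 8.73 and 8.31, unc-49 read 8.16, 8.31 and 8.63, and gar-2 read 7.90, 7.43 and 7.62. The dopamine receptor gene dop-1 averaged 7.42 ± 0.09. The excitatory GABA receptor gene exp-1 and the tyramine receptor gene tyra-2 were the dimmest, at 4.60 ± 0.04 and 4.61 ± 0.05.

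For glutamate receptors it was 10 of 19 genes, a share of 52.6% against 42.5% of all genes. avr-14, a glutamate-gated chloride channel gene, averaged 8.13 ± 0.19, glr-5 averaged 7.46 ± 0.17, glc-4 averaged 7.37 ± 0.11 and the metabotropic receptor gene mgl-1 averaged 7.34 ± 0.21. glr-10 was near the floor of the array, at 3.70 ± 0.09.

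Of 67 potassium channel genes, 23 were above the background level, a share of 34.3% against 42.5% of all genes. The brightest were members of the TWK family, whose channels pass a steady leak of potassium. twk-18, known from body wall muscle, read 9.63, 9.07 and 9.44, and twk-49 read 9.40, 8.69 and 8.88. egl-23 and twk-30 averaged 7.77 ± 0.01 and 7.54 ± 0.42. Other members of the same family closed the list, with twk-24 at 4.13 ± 0.11 and twk-9 at 4.05 ± 0.18. Calcium and sodium-leak channel genes had 10 of 12 above, a share of 83.3%. The ryanodine receptor gene unc-68 led them at 8.44 ± 0.14, followed by egl-19, the L-type calcium channel of muscle and neurons, at 8.41 ± 0.11. unc-80, which is needed for the sodium leak channel that sets motor neuron excitability, averaged 7.97 ± 0.13, and unc-2, the presynaptic calcium channel, averaged 6.60 ± 0.25.

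The DEG/ENaC sodium channel list had 9 of 28 above, a share of 32.1%. del-6 led it at 9.19 ± 0.23, and unc-8, a channel of motor neurons, averaged 6.97 ± 0.11. Innexins, the proteins of invertebrate gap junctions, had 12 of 25 above, a share of 48.0% against 42.5% of all genes. inx-12, known from the excretory canal, averaged 9.62 ± 0.23. unc-9, which joins A-class neurons to the command interneurons that drive them, read 9.73, 9.22 and 9.52, at percentile 95.8. Another probe set of unc-9 averaged 5.06, under the line. inx-20 was the dimmest, at 4.39 ± 0.08.

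Axon guidance and adhesion genes had 50 of 67 above the background level, a share of 74.6%, and 13 among the brightest 10%. The ankyrin gene unc-44 averaged 9.84 ± 0.02, but rests on the brightest of 9 probe sets, of which the dimmest read 4.25. unc-6, the netrin that guides axons along the dorsal to ventral axis, read 10.37, 9.67 and 9.23, with replicate 1 on top. unc-115, an actin-binding protein gene of axon growth, averaged 9.70 ± 0.12, and vab-10, the spectraplakin, averaged 9.46 ± 0.36. plx-1, a plexin receptor gene, averaged 4.38 ± 0.12.

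Wnt signals are known to place synapses in A-class neurons of the tail. Of 28 genes of the pathway, 20 were above the background level (71.4%, against 42.5% of all genes). The Frizzled receptor gene mom-5 read 9.52, 9.12 and 9.06. vps-35, a retromer gene that Wnt secretion needs, averaged 8.70 ± 0.17, the beta-catenin gene bar-1 averaged 8.58 ± 0.02 and the Ror receptor gene cam-1 averaged 8.57 ± 0.09. The ligand gene lin-44 and the TCF gene pop-1 were the dimmest, at 4.61 ± 0.24 and 4.59 ± 0.06.

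Homeodomain factors choose cell identity, and their genes were spread like all genes, with 39 of 93 above the background level, a share of 41.9% against 42.5% of all genes. The PBX gene ceh-20, a cofactor in many tissues, led the list at 9.51 ± 0.14, followed by the POU gene ceh-18 at 8.40 ± 0.24, dve-1 at 8.19 ± 0.16 and the Meis gene unc-62 at 7.90 ± 0.08. unc-4 was the sixth brightest of the 93, and ceh-7 was the dimmest gene of all 17118, at 3.47 ± 0.12. Of the 6 Hox genes, which set position along the body, 3 were above the line: mab-5 at 6.97 ± 0.22, nob-1 at 6.95 ± 0.02 and ceh-13 at 6.17 ± 0.16. lin-39, the Hox gene of the mid-body ventral cord, read 4.88, 4.77 and 4.58, and egl-5 and php-3 averaged 5.20 ± 0.18 and 5.03 ± 0.15.

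In a list of 25 motor neuron transcription factor genes, 14 were above (56%, against 42.5% of all genes). After unc-3, its brightest was unc-37, the corepressor gene of UNC-4, which read 8.54, 8.45 and 8.49, at percentile 91.0. egl-44, a TEAD factor gene, averaged 8.17 ± 0.10. unc-55, which acts in VD neurons, and cfi-1, an ARID factor gene, were at 4.48 ± 0.09 and 4.71 ± 0.07. Of 260 nuclear hormone receptor genes, 67 were above, a share of 25.8% against 42.5% of all genes. Their brightest, nhr-49, a regulator of fat metabolism, averaged 9.62 ± 0.11.

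Whole families can be ranked by their median percentile, among the 165 symbol families with at least 10 genes measured. The rps and rpl families came first, at 99.8 and 99.7, followed by the cox family of cytochrome oxidase at 98.8, the galectin family lec at 96.7 and the vha family at 96.6. The flp peptides took the seventh place, the only family of neuronal genes among the first 7. The last 3 were the chil, pals and math families, at 11.1, 8.22 and 6.55. Protein-coding genes were above the background level in 44.3% of cases, and pseudogenes in 9.92%.

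Of 128 col collagen genes, which build the cuticle, 90 were above the background level (70.3%) and 40 among the brightest 10%. Their levels ran from col-93 at 13.61 to col-40 at 4.15. They held 3.21%, 3.50% and 3.04% of the summed intensity in replicates 1, 2 and 3, and replicate 2 was the highest array for 76 of them, against 34.9% of all genes. The same array was highest for 49 of 80 hedgehog-related and patched-related genes and for 24 of 33 genes of the astacin proteases, enzymes of which some remodel the cuticle. In the heterochronic and molting list, where 23 of 27 genes were above, noah-1 averaged 10.69 ± 0.21 and mlt-11 read 9.63, 10.40 and 10.34.

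Families of defence and metabolism differed in how many members were above the background level. C-type lectin genes had 49 of 220 above the background level, a share of 22.3% against 42.5% of all genes, with clec-63 at 12.14 ± 0.02 and clec-192 at 3.55 ± 0.05. The cytochrome P450, UGT and GST genes, whose enzymes modify foreign compounds, had 75 of 177 above, a share of 42.4% that is near the 42.5% of all genes, led by the glutathione transferase gene gst-27 at 10.54 ± 0.08. Of 30 globin genes, 7 were above (23.3%), and glb-1 stood well clear of the others at 10.54 ± 0.22, with glb-33 next at 7.67 ± 0.07. Transthyretin-related genes had 25 of 40 above, a share of 62.5%, with ttr-15 at 11.54, 11.26 and 11.88.

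**Figure D4:**
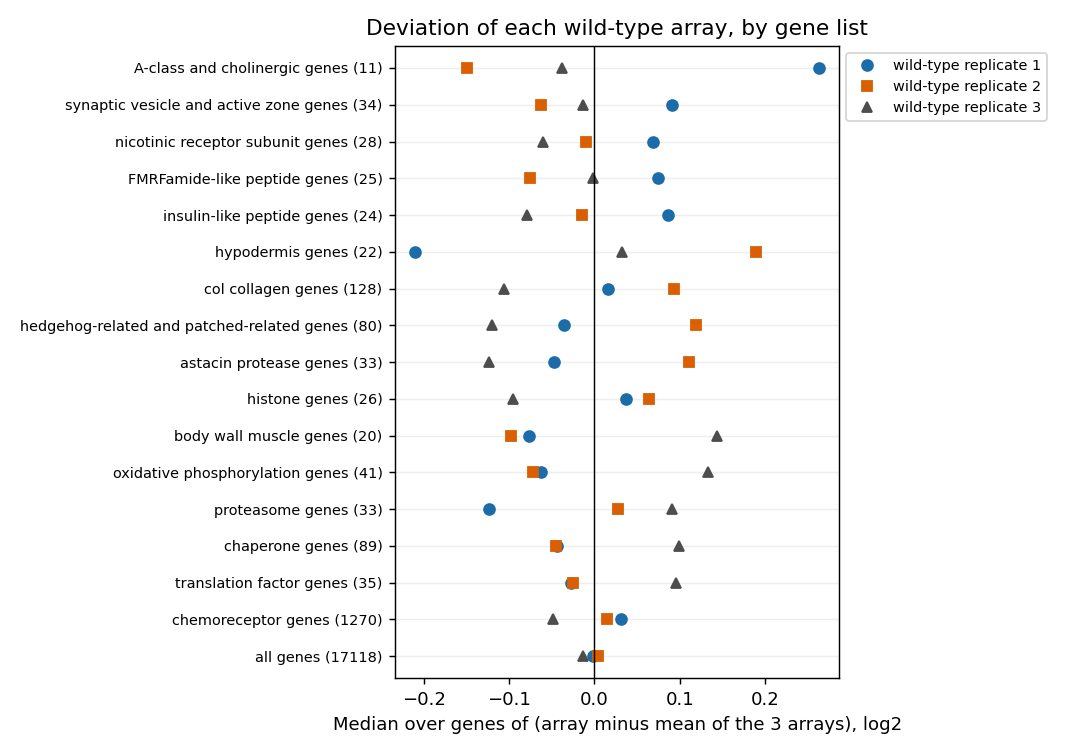
Median over the genes of a list of the level on 1 array minus the mean of the 3 arrays (horizontal axis, log2) for 16 lists and all genes (rows, with the number of genes), 1 point per wild-type array. A-class and cholinergic genes lie highest in replicate 1, at 0.26, hypodermis genes in replicate 2, at 0.19, and body wall muscle genes in replicate 3, at 0.14, while all genes lie within 0.014 of 0 on each array.

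The arrays differed in which lists they held high. The median deviation from the mean of the 3 arrays was 0.26 in replicate 1 for the A-class and cholinergic genes, against -0.15 in replicate 2 and -0.04 in replicate 3. For hypodermis genes it was -0.21 in replicate 1, 0.19 in replicate 2 and 0.03 in replicate 3. Body wall muscle genes had -0.08, -0.10 and 0.14. Over all genes the 3 medians were between -0.014 and 0.004. The lists shown were picked after their values had been seen, and genes of a list are not independent, so these numbers describe the arrays and carry no test.

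Most single genes varied little. The median SD over the 3 arrays was 0.115 for all genes, 0.141 for genes above the background level and 0.102 for those not above. A range of at least 1, a 2-fold span, was found in 207 of 17118 genes, 1.21%, of which 192 were above the background level. Replicate 1 was the highest array in 25 of them, replicate 2 in 96 and replicate 3 in 86. The lowest array was replicate 1 in 40 of them, replicate 2 in 59 and replicate 3 in the rest. Without replicate 3, 35 genes had such a range, without replicate 2 there were 72 and without replicate 1 there were 157. A range over 2 arrays cannot exceed the range over 3, so leaving out any array lowers or keeps the count by construction.

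The 15 genes of largest SD above the background level fell into 3 kinds by the array on top. lep-5, a noncoding RNA gene of developmental timing, read 7.36, 6.03 and 8.32, and adh-1, an alcohol dehydrogenase gene, read 7.53, 6.97 and 8.95. The other genes with replicate 3 on top were rpc-2, rrn-3.56, alh-1, pugs-2 and tufm-2. With replicate 2 on top, the collagen gene col-41 read 10.91, 12.29 and 10.51, and sqt-1, another collagen gene, read 7.84, 9.33 and 7.63. The hedgehog-related genes grl-7 and grl-15 read 7.91, 8.89 and 6.99, and 8.67, 9.56 and 7.98. spia-1 and dbd-8 were the other genes of this kind. The 2 genes with replicate 1 on top were gpc-2, given above, and tpan-1, at 10.25, 9.07 and 8.54.

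**Figure D5:**
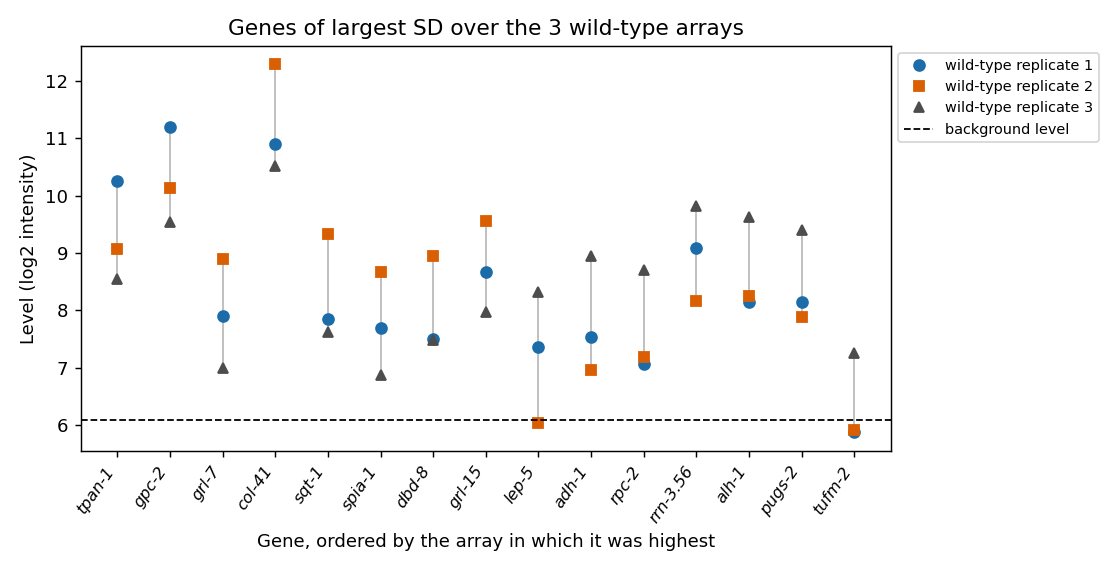
Level (vertical axis, log2 intensity) of the 15 genes of largest SD over the 3 wild-type arrays among genes above the background level (horizontal axis, ordered by the array in which they were highest), with 1 point per array and a grey line over the range. 2 genes were highest in replicate 1, 6 in replicate 2 and 7 in replicate 3, with SDs between 0.78 and 1.15.

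How far a rank can be trusted was visible in genes that have several probe sets. There were 2981 of them, 17.4% of all genes, and the gap between the brightest and the dimmest set had a median of 1.45. It was at least 1 in 1951 genes, 65.4% of them, and in 1232 genes, 41.3%, the sets lay on both sides of the background level. The widest gap was in rpl-8, a ribosomal protein gene, with sets at 12.92 ± 0.07 and 4.75 ± 0.15. hmg-1.1, a chromatin protein gene, followed with a brightest set at 11.95 and a dimmest at 4.47. spig-11 had sets at 11.49 and 4.43, rpl-12 had 12.78 and 5.85 and col-157 had 11.43 and 4.75. These gaps were wide beside the spread of 1 probe set over the arrays, with its median SD of 0.115. Of the 17118 genes, 661 rest on sets that can bind other genes and 3513 on sets that share sequence among transcripts.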

How the data were processed

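Tagged poly(A) RNA was measured on Affymetrix arrays of 1 colour, and the 3 arrays labelled wildtype were used, without the 3 unc-37(e262) arrays. The deposited intensity values were made by the authors with RMA, per the submitters' processing notes, while its version, the probe set definitions and a genome build were not given in the sources used here. In RMA, quantile normalization gives all arrays one distribution, so array medians are alike by construction, and amplification in 2 rounds can favour the 3′ ends of transcripts. That the deposited intensities are linear was read from their values, and they were log2 transformed with no filter. Of 22548 probe sets, 20766 named 1 gene by the platform's gene table, 887 several and 895 none. Only the first kind was used, and 65 of its sets had a gene missing from the RefSeq table of assembly WBcel235, which served for names alone. This gave 17118 genes, of which 10388 have a symbol.

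The 1 group allows no contrast and no test, so every comparison is a description with its SD over 3 arrays, and their number limits the precision. With unclear separation of the cultures, the SD may be partly technical. Genes were named by a rule: the 30 brightest symbols, up to 4 brightest and 2 dimmest members of each of 55 lists and all members of lists of 12 or fewer, the defining cell type markers, the 15 genes of largest SD above the background level and the 5 widest gaps between probe sets. Chosen for their roles after values had been seen were rab-3, snt-1, unc-18, unc-104, unc-57, egl-21, pghm-1, flp-13 and flp-17, and so were the counts by highest array. The members and lists were chosen with earlier results of these data known. Sequences are not used here. Python 3.11.15, numpy 2.4.6, pandas 2.3.3 and matplotlib 3.10.9 were used. The probe set choice and the range call were checked on simulated data, while the percentile and background steps were not. The alternatives concerned the array left out, the probe set, the normalization, the scale of the mean, the background level and the range.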

Additional observations from a re-analysis of the deposited data

How the results depend on the processing

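Over 58 results and 14 alternatives, 619 of 680 values stayed close to those reported: counts within 1.5 times and marker levels within 1 SD. Leaving out 1 of 3 arrays cannot shift a mean by as much as 1 SD, so marker levels could not move there by construction. No result moved with replicate 1 left out, the brightest set taken over all 6 arrays, a further quantile normalization, centring on medians, the mean of linear intensities or a background level fixed at 6. RMA had already given the arrays one distribution, so the further quantile normalization and the centring could change little by construction. Of all genes, 7246 to 7371 were above the background level with 1 array left out, against 7270, and 5074 with the stricter level of 6.66. The count of genes with a range of at least 1, reported as 207, was 35 to 157 with 1 array left out. It was 133 among sets with no letter before the ending and 1761 for a range of at least 0.5. By construction, leaving out an array cannot raise this count and a smaller minimum range cannot lower it. With a gene's probe sets averaged, unc-17 was at 8.04, cha-1 at 6.80 and unc-3 at 7.39, all above the background level. Each was lower by more than 1 SD than the reported 8.81 ± 0.26, 7.06 ± 0.18 and 8.78 ± 0.29. These were the 3 values that moved with this alternative, so the reported levels of these markers depend on taking the brightest set. unc-4 has 1 probe set alone.

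With the background level at the 99th percentile of chemoreceptor genes, the counts above it were 3 touch receptor, 3 ciliated, 2 monoamine and glutamate neuron, 5 germline, 7 nicotinic receptor, 5 GABA and amine receptor, 14 potassium channel, 6 calcium and sodium-leak channel, 5 DEG/ENaC, 7 insulin-like, 8 neuropeptide receptor, 18 homeodomain, 9 motor neuron factor, 31 nuclear hormone receptor, 28 hedgehog-related, 30 C-type lectin and 43 cytochrome P450, UGT and GST genes. With the 95th percentile of sperm genes, at 6.59, they were 3 touch receptor, 5 ciliated, 3 monoamine and glutamate neuron, 5 germline, 7 nicotinic receptor, 5 GABA and amine receptor, 8 insulin-like, 8 neuropeptide receptor, 19 homeodomain, 35 nuclear hormone receptor, 29 hedgehog-related, 31 C-type lectin and 45 cytochrome P450, UGT and GST genes. A higher line lowers such counts by construction. Only the lists whose count moved are given, with the same members as in the main text. Of all 17118 genes, 5074 were above the first of these lines and 5307 above the second.

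Keeping only sets whose name ends in _at with no letter before it left 13618 genes and gave no value for unc-17 and cha-1. Of these genes, 4989 were above the background level. Fewer members of the lists were measured, and in some lists the share above fell too. It did so for germline genes, 3 of 14 against 9 of 20, and histone genes, 4 of 8 against 22 of 26. Pharynx genes kept their share, 7 of 7 against 13 of 13. The counts above were 0 of 2 touch receptor, 10 of 12 body wall muscle, 7 of 7 pharynx, 8 of 9 intestine, 10 of 12 hypodermis, 3 of 14 germline, 3 of 5 coelomocyte and glia, 7 of 9 dense core vesicle, 5 of 22 DEG/ENaC, 7 of 17 innexin, 23 of 41 neuropeptide-like, 26 of 42 axon guidance, 10 of 16 Wnt, 5 of 7 tubulin, 35 of 37 ribosomal protein, 1 of 1 ribosomal RNA, 11 of 17 translation factor, 22 of 25 oxidative phosphorylation, 6 of 6 V-ATPase, 12 of 13 proteasome, 30 of 51 chaperone, 4 of 8 histone, 53 of 80 collagen and 27 of 58 hedgehog-related genes.

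No paired analysis was possible because 1 group alone was used and the results come from no test. The mean of linear intensities was not run for the range, which does not depend on it. Levels depend on how well each probe set binds, and signal near the background level cannot tell a rare transcript from none. The arrays give no way to separate RNA of the A class from RNA of other cells.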
